A study of Mus musculus with 3 samples.

Results

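Of the 18287 genes listed for mouse aortic endothelial cells, 10 encode the amino acid transporters described here, found by their symbols in both tables of treated cells against control. They are the cystine antiporter Slc7a11, its partner Slc3a2, the related light chains Slc7a5 and Slc7a6, the cationic carriers Slc7a1 and Slc7a3, the neutral carriers Slc1a4, Slc1a5 and Slc38a2, and the glycine carrier Slc6a9. All 10 were listed in both tables. The cells were a purchased primary culture kept in the supplier's medium, and no strain or age of the donor animals is given in the sources used here. Polyadenylated RNA was sequenced from 1 library in each of 3 groups: control cells, cells given glucose oxidase (5 mU/mL, 30 min), and cells given the same glucose oxidase together with ethyl-2-hydroxybenzylamine (Et2HOBA, 0.2 mM, 24 h). Glucose oxidase produces hydrogen peroxide as it oxidises glucose, and Et2HOBA is a scavenger of reactive aldehydes formed during lipid oxidation. The order of the exposures and the time from exposure to harvest are not given, and a library with Et2HOBA alone was not analysed here.

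With 1 library per group there is no measure of the spread between cultures, and no test of a treatment was possible. The intervals below are exact 95% intervals of counting error on the reads of 2 libraries. They compare those libraries, not the conditions, and since molecules were not tagged they cover counting error only. Folds are ratios of counts divided by size factors (median of ratios over the 3 libraries). Log2 ratios were taken after adding 10 to each normalized count, and a gene was counted as higher or lower at a log2 ratio of 1 or more in either direction. The libraries held 35969965 listed reads in control, 35005089 with glucose oxidase and 40212212 with glucose oxidase plus Et2HOBA.

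Amino acid transporters include exchangers, which swap one amino acid for another, and carriers driven by ion gradients or membrane potential. SLC7A11 and SLC3A2 together form system xc-, which brings in cystine in exchange for glutamate; cystine is reduced to cysteine inside the cell and is used to make glutathione. Transcription of many of these transporter genes is known to be driven by ATF4, a factor made when amino acids are scarce or the endoplasmic reticulum is stressed, and Slc7a11 is also a known target of NRF2, the factor that responds to electrophiles and oxidants.

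The reference promoter of Slc7a11 holds the short sequence TGATGNAA 2 times, and it is shown here because of this. These letters are the core of the C/EBP-ATF response element, through which ATF4 is known to act. RefSeq promoter windows (build GRCm38.p6) run from 250 bases before the start of a transcript to 50 after it, and 11 windows of 7 of the 10 genes were matched. Windows of Slc7a5, Slc1a5 and Slc7a3 were not used here. The 250 bases before the start of Slc7a11 (chr3:50443614-50443863, minus strand) are given 5′ to 3′ on the strand of the gene, with the matches in capitals.
Slc7a11 upstream: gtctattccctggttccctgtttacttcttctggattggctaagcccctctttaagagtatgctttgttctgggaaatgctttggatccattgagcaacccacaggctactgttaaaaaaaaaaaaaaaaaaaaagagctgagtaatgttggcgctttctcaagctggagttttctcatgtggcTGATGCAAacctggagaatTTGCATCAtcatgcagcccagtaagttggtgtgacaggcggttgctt

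The matches begin 66 and 47 bases before the start, lie on opposite strands and have 11 bases between them. Both strands were searched, so TTNCATCA on the strand of the gene counts as a match. Of 32851 promoter windows in the RefSeq table, 1304 (3.97%) held at least 1 match and 23 (0.0700%) held at least 2. Of the other 6 genes with a window, only Slc1a4 held a match, where 1219 of 27025 genes (4.51%) did. The antioxidant response element core TGACNNNGC (GCNNNGTCA on the other strand), bound by NRF2, was present in 4071 windows (12.4%). By gene, 3781 of 27025 (14.0%) held it in a window, as did 4 of the 7 genes, Slc38a2, Slc6a9, Slc7a1 and Slc7a6. The windows of Slc7a11 and Slc3a2 held no match to TGACNNNGC, and that of Slc3a2 held none to either. A match to these letters is a description of the sequence and not evidence of binding. The stretches of 30 bases around matches in Slc1a4 (chr11:20332699-20332728, minus strand), Slc6a9 (chr4:117849293-117849322, plus strand), Slc7a1 (chr5:148399897-148399926, minus strand) and Slc38a2 (chr15:96699737-96699766, minus strand) are shown so that the letters can be compared, again with the match in capitals. Slc6a9 has a second match, in another window (chr4:117855491-117855520, plus strand), and its stretch is given too.
Slc1a4, TGATGNAA: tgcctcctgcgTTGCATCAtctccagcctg
Slc6a9, TGACNNNGC: gtgaaagtaatTGACGCTGCccagcccggc
Slc6a9 second, TGACNNNGC: tgtttccggctTGACTTGGCtgcttggtat
Slc7a1, TGACNNNGC: gcggccgcgcgGCGCTGTCAttggtgccct
Slc38a2, TGACNNNGC: gccccgcccacTGACGCGGCgccccgccgc

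Slc7a11 and Slc3a2, the 2 chains of the cystine antiporter, were both higher in each treated library than in control. Slc7a11 (chr3:49892526-50443614, minus strand, GRCm38) had 5932 reads in control, 38521 with glucose oxidase and 51489 with glucose oxidase plus Et2HOBA. The control library was the lowest and the library with both agents the highest. The fold over control was 6.94 (95% counting interval 6.75 to 7.14) with glucose oxidase and 8.62 (8.40 to 8.86) with both agents. Ranked by its log2 ratio, Slc7a11 stood at place 50 from the top of the 18287 genes with glucose oxidase and at place 74 with both agents. By its number of reads within a library, it stood at place 1358 in control, 60 with glucose oxidase and 45 with both agents.

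Slc3a2 (chr19:8706882-8723369, minus strand), the heavy chain 4F2hc that carries SLC7A11 and several other light chains to the cell surface, had 7093, 25278 and 34241 reads in control, with glucose oxidase and with both agents. Its order of libraries was that of Slc7a11, with smaller folds of 3.81 (3.71 to 3.91) and 4.80 (4.68 to 4.92). Of the 50-base stretches of its longest transcript, 4.41% also occur on the same strand in transcripts of other genes, so reads from those stretches could have been left out or shared.

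**Figure D1:**
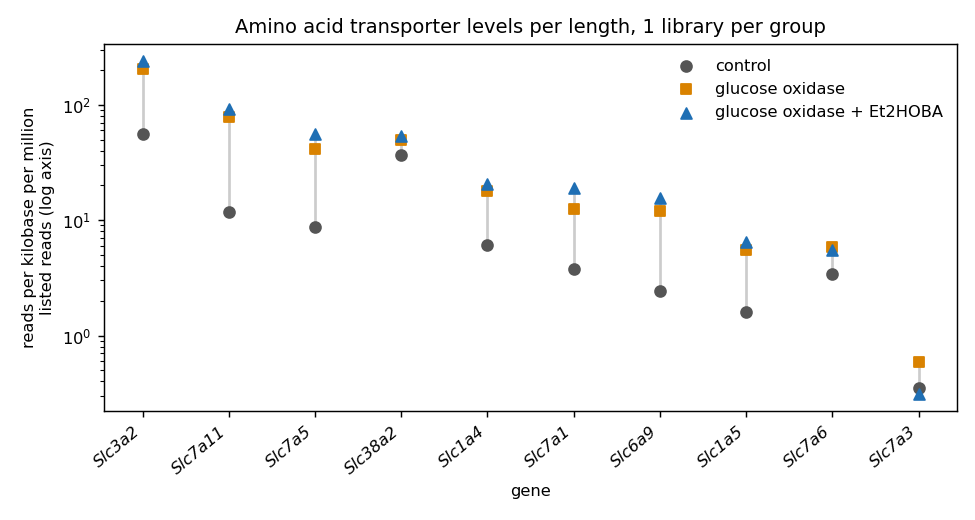
Level of each transporter in RPKM (reads scaled to exon length and library total, log axis) in the control (grey circles), glucose oxidase (orange squares) and glucose oxidase plus Et2HOBA (blue triangles) libraries, 1 library each; grey lines join the lowest and highest value of a gene. The control point is the lowest for every gene but Slc7a3, and Slc3a2 is the highest gene and Slc7a3 the lowest in each library.

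SLC7A5 (LAT1) and SLC7A6 (y+LAT2) are further light chains of SLC3A2; the first exchanges large neutral amino acids such as leucine and the second exchanges cationic for neutral amino acids. Slc7a5 (chr8:121881150-121907694, minus strand) had 1165 reads in control, 5350 with glucose oxidase and 8366 with both agents. It was 4.91-fold (4.61 to 5.23) and 7.14-fold (6.71 to 7.59) over control, next to Slc7a11 among the light chains. Slc7a6 (chr8:106168857-106198706, plus strand) had 560, 943 and 1023 reads. Its folds of 1.80 (1.62 to 2.00) and 1.82 (1.64 to 2.02) stayed under the limit as log2 ratios, at 0.84 and 0.85.

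The light chains as a sum were compared with the heavy chain they share, a grouping chosen after the values were seen. Levels of different genes were compared per length, as RPKM (reads scaled to exon length and to all listed reads of the library), computed from the counts. Besides Slc7a11, Slc7a5 and Slc7a6, the sum held Slc7a7 (y+LAT1), while Slc7a8 and Slc7a10 were not analysed here. The 4 light chains summed to a level of 34.9 in control, 134 with glucose oxidase and 160 with both agents, against 55.9, 205 and 241 for Slc3a2. The ratio of the sum to Slc3a2 was 0.624 (95% counting interval 0.603 to 0.646) in control, 0.654 (0.643 to 0.665) with glucose oxidase and 0.662 (0.653 to 0.672) with both agents. Both sides were higher in the treated libraries, and the intervals of the ratio overlapped between control and glucose oxidase and between the treated libraries, but not between control and both agents. The make-up of the sum differed more: Slc7a11 made up 34.0% of it in control, 59.1% with glucose oxidase and 57.6% with both agents. Slc7a5 made up 25.0%, 30.8% and 35.1%. The share of Slc7a7 was 31.2%, 5.69% and 3.84%, and that of Slc7a6 was 9.77%, 4.41% and 3.48%. These are shares of RNA; pairing of the proteins was not measured. With the length of the longest principal transcript in place of the exon union, the ratios were 0.434, 0.456 and 0.456.

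**Figure D2:**
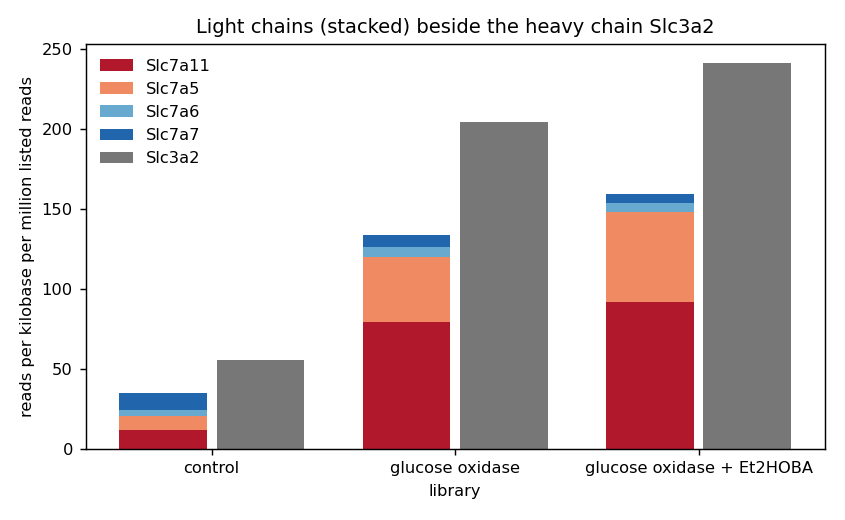
Levels per length (RPKM) of the light chains Slc7a11, Slc7a5, Slc7a6 and Slc7a7, stacked, beside the level of their heavy chain Slc3a2 in each of the 3 libraries. The stack reaches 34.9, 134 and 160 beside 55.9, 205 and 241 for Slc3a2, and Slc7a11 and Slc7a5 fill most of it in the treated libraries.

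The carriers of cationic amino acids differed from one another. Slc7a1 (CAT1; chr5:148327410-148399904, minus strand), which brings arginine and lysine into endothelial cells, had 1559 reads in control, 5006 with glucose oxidase and 8845 with both agents. It was 3.43-fold (3.24 to 3.64) and 5.64-fold (5.34 to 5.95) over control. Slc7a3 (CAT3; chrX:101079210-101086020, minus strand), a carrier of the same substrates best known from brain, had only 48, 78 and 47 reads. It was the one gene of the 10 whose library with both agents was not above control, at 0.973-fold (0.637 to 1.49). Its fold with glucose oxidase alone was 1.74 (1.20 to 2.54), and the number of reads limits what can be said of it.

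Among the carriers of neutral amino acids, Slc1a4 and Slc1a5 passed the limit in both treated libraries and Slc38a2 passed it in neither. Slc1a4 (ASCT1; chr11:20302180-20332713, minus strand), an exchanger of alanine, serine and cysteine, had 856 reads in control, 2461 with glucose oxidase and 3242 with both agents. Its folds were 3.07 (2.84 to 3.33) and 3.76 (3.49 to 4.06). Slc1a5 (ASCT2; chr7:16781340-16798274, plus strand), which exchanges glutamine for other neutral amino acids, had 238, 808 and 1077 reads. Its folds of 3.63 (3.14 to 4.21) and 4.50 (3.90 to 5.20) were close to those of Slc3a2. Slc38a2 (SNAT2; chr15:96687392-96699730, minus strand) is a sodium-coupled carrier of small neutral amino acids whose RNA is known to respond to amino acid shortage. It had 11586 reads in control, 15340 with glucose oxidase and 18997 with both agents, and was the gene with the most reads of the 10 in control. Its folds were 1.42 (1.38 to 1.45) and 1.63 (1.59 to 1.67).

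Slc6a9 (GLYT1; chr4:117834506-117875198, plus strand) is a sodium- and chloride-coupled carrier of glycine, which is, like cysteine and glutamate, a building block of glutathione. It had 453 reads in control, 2165 with glucose oxidase and 3231 with both agents, which was 5.11-fold (4.61 to 5.67) and 7.09-fold (6.42 to 7.84) over control. Its intervals overlapped those of Slc7a5 in both comparisons, and of the 10 genes only Slc7a11 lay above both. Exons of Slc6a9 overlap genes on the other strand, and 41.2% of the 50-base stretches of its longest transcript lie in transcripts of Ccdc24 or Gm17114. Ccdc24 had 2, 17 and 11 reads, B4galt2, which also overlaps it, had 525, 574 and 619, and Gm17114 was not analysed here. The libraries were stranded, but whether reads were counted by strand is not given in the sources used here, so the value of Slc6a9 is less certain than the others.

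**Figure D3:**
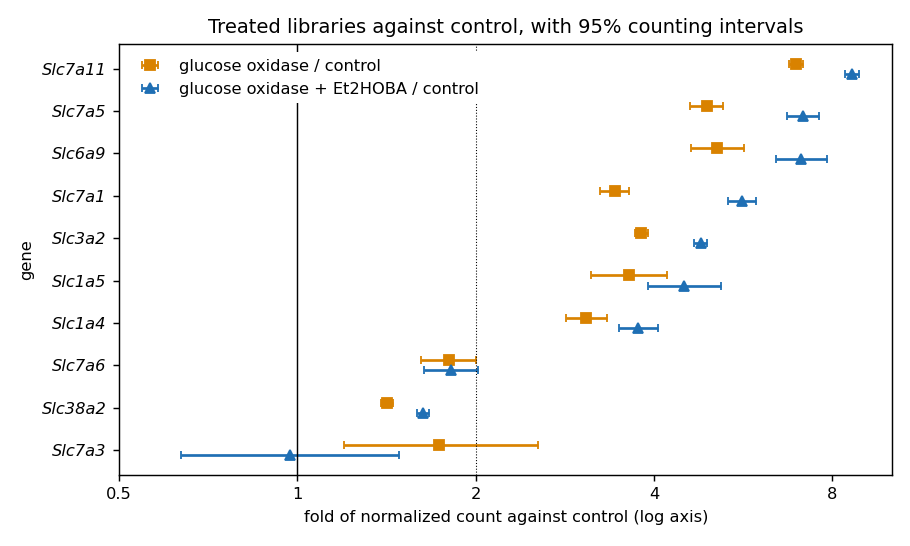
Fold of the normalized count against control (log axis) for each transporter with glucose oxidase (orange squares) and glucose oxidase plus Et2HOBA (blue triangles); bars are exact 95% counting intervals on the reads of 2 libraries, the solid line is 1 and the dotted line 2. For 7 genes both intervals lie above 2, and the interval of Slc7a3 with both agents holds 1.

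With glucose oxidase, 7 of the 10 transporters were higher than control by the limit and 0 were lower, where 4.07% of the 18287 genes were higher and 8.6% were lower. With both agents the same 7 genes were higher and 0 were lower, where 6.66% of all genes were higher and 8.04% were lower. Those 7 were Slc7a11, Slc3a2, Slc7a5, Slc7a1, Slc1a4, Slc1a5 and Slc6a9. The median log2 ratio of the 10 was 1.79 with glucose oxidase and 2.19 with both agents, beside -0.0132 and -0.000154 for all genes. The 10 genes were chosen with earlier results of these data known, so these counts describe the genes and are not a test of them as a group. Both comparisons use the same control library, so the second set of ratios is not a repeat of the first. Together the 10 genes took 29490 reads in control, 95950 with glucose oxidase and 130558 with both agents, which is 0.0820%, 0.274% and 0.325% of the listed reads.

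In the authors' deposited table of glucose oxidase against control, log2 differences were 2.76 for Slc7a11, 2.12 for Slc7a5, 1.97 for Slc6a9, 1.90 for Slc3a2, 1.66 for Slc7a1, 1.43 for Slc1a4 and 1.34 for Slc1a5. The same authors' deposited table gave 0.68 for Slc7a6, 0.50 for Slc38a2 and 0.29 for Slc7a3. The authors' deposited table uses a scale that behaves, at high counts, as if 202 normalized counts had been added to each value, so its differences are smaller for genes with few reads. For glucose oxidase plus Et2HOBA against control, where the corresponding number was 71.1, the authors' deposited table ran from 3.09 for Slc7a11 down to -0.02 for Slc7a3.

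The libraries with and without Et2HOBA were compared directly to see how the transporters stood when the scavenger was added to glucose oxidase. None of the 10 passed the limit (0 higher, 0 lower), where 6.39% of all genes were higher with both agents and 2.15% were lower. The share of all genes higher depended on the number added to each count, at 10.9% with 1 and 2.56% with 50. On the deposited scale it was 0.197%, where the scale was fitted to the 7 genes deposited for this comparison and applied to all genes. The count for the transporters was 0 under each, which for 10 genes is near these shares. At these read numbers even small folds lie above 1 beyond counting error, such as that of Pecam1 at 1.02 (1.004 to 1.038). The share of all genes with such an interval was not computed. Among the 10 transporters, the fold was above 1 beyond counting error for 8 genes. Slc7a1 had the largest, at 1.64 (1.59 to 1.70), followed by Slc7a5 at 1.45 (1.40 to 1.50), Slc6a9 at 1.39 (1.31 to 1.47) and Slc3a2 at 1.26 (1.24 to 1.28). Slc7a11 was 1.24-fold (1.23 to 1.26) and Slc1a5 1.24-fold (1.13 to 1.36) higher with both agents, with intervals that overlapped. Slc1a4 was at 1.22 (1.16 to 1.29) and Slc38a2 at 1.15 (1.13 to 1.18). The interval of Slc7a6 held 1, at 1.01 (0.922 to 1.10), and Slc7a3 was lower with both agents, at 0.560 (0.381 to 0.815). The median log2 ratio of the 10 was 0.31, beside 0 for all genes. Since both libraries had glucose oxidase, a value above 1 here is a level with both agents further from control than with glucose oxidase alone.

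**Figure D4:**
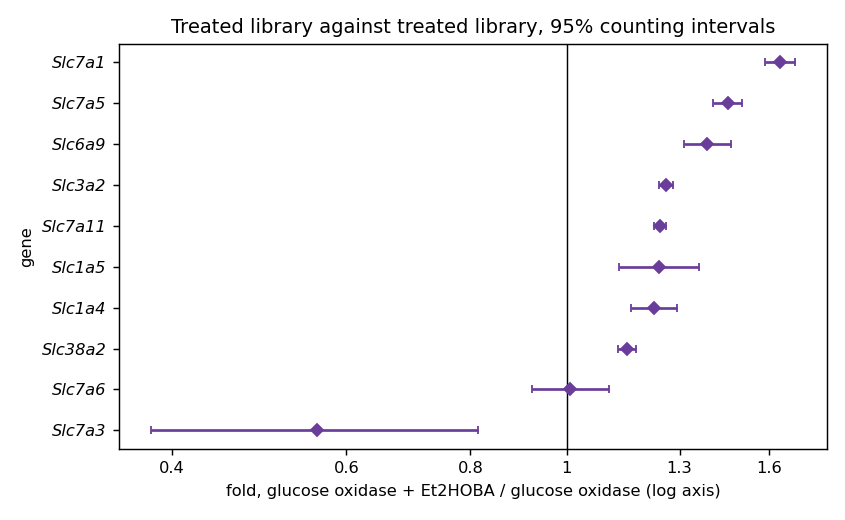
Fold of the normalized count in the glucose oxidase plus Et2HOBA library over the glucose oxidase library (log axis) for each transporter, with exact 95% counting intervals on the reads of the 2 libraries. Of the 10 genes, 8 lie above 1 with their intervals, up to 1.64 for Slc7a1, while Slc7a6 spans 1 and Slc7a3 lies below it. The share of all genes with an interval above 1 was not computed.

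Per length, the order of the transporters differed between control and treated cells. In control the levels, in RPKM, were 55.9 for Slc3a2, 36.4 for Slc38a2, 11.8 for Slc7a11, 8.73 for Slc7a5 and 6.06 for Slc1a4. Below these came Slc7a1 at 3.76 and Slc7a6 at 3.41, whose counting intervals overlapped, then Slc6a9 at 2.45, Slc1a5 at 1.59 and Slc7a3 at 0.353. Slc38a2, the second in control, was passed by Slc7a11 in the treated libraries. With glucose oxidase the order of levels was Slc3a2 at 205, Slc7a11 at 79.0, Slc38a2 at 49.6, Slc7a5 at 41.2 and Slc1a4 at 17.9. Slc7a1 at 12.4 and Slc6a9 at 12.0 overlapped in their intervals, as did Slc7a6 at 5.89 and Slc1a5 at 5.53, and Slc7a3 was at 0.589. With both agents Slc3a2 was at 241, Slc7a11 at 92.0, Slc7a5 at 56.1, Slc38a2 at 53.5, Slc1a4 at 20.5, Slc7a1 at 19.1, Slc6a9 at 15.6, Slc1a5 at 6.42, Slc7a6 at 5.57 and Slc7a3 at 0.309. No neighbouring intervals overlapped in that library. With the length of the principal transcript, Slc38a2 stood above Slc7a5 in that library, and Slc7a1 and Slc6a9 stood above Slc1a4.

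None of the other listed amino acid transporters reached the limit on log2 ratios with 10 added. From a list of 43 further genes, 16 were listed and 27 were not analysed here. In each of the 3 comparisons 0 of the 16 were past the limit. Of all genes, 4.07%, 6.66% and 6.39% were higher and 8.6%, 8.04% and 2.15% were lower. With only 16 genes, a count of 0 is near these shares. Their median log2 ratio was 0.16 with glucose oxidase, 0.09 with both agents and -0.11 between the treated libraries. This list, like the 10 transporters, was chosen with earlier results of these data known, so the contrast between them is not a test. Without the added 10, genes with few reads went past a 2-fold difference. Slc38a1 (3, 13 and 10 reads) was at 4.63-fold of control (1.27 to 25.3) with glucose oxidase and 3.31-fold (0.853 to 18.7) with both agents. With both agents Slc6a19 (43, 56 and 89 reads) was at 2.06-fold (1.41 to 3.03) and Slc16a10 (14, 26 and 32 reads) at 2.27-fold (1.18 to 4.61). Slc7a14 (7, 6 and 1 reads) was at 0.142-fold (0.00315 to 1.10) and Slc6a14 (6, 6 and 1 reads) at 0.166-fold (0.00360 to 1.36) with both agents, intervals that hold 1. Since no gene of the list passed the limit, these and the following were chosen after their values were seen. Slc7a7, the light chain whose share is given above, had 1299 reads in control, 883 with glucose oxidase and 817 with both agents, with log2 ratios of -0.46 and -0.67 against control. Slc43a2 (LAT4), a carrier of large neutral amino acids without a heavy chain, had 2564, 4178 and 2900 reads. Its log2 ratio was 0.80 with glucose oxidase and 0.17 with both agents. Ctns, which lets cystine out of lysosomes, had 2024, 1485 and 1330 reads. Slc6a6, the taurine carrier, had 7956, 8150 and 8043 reads.

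**Figure D5:**
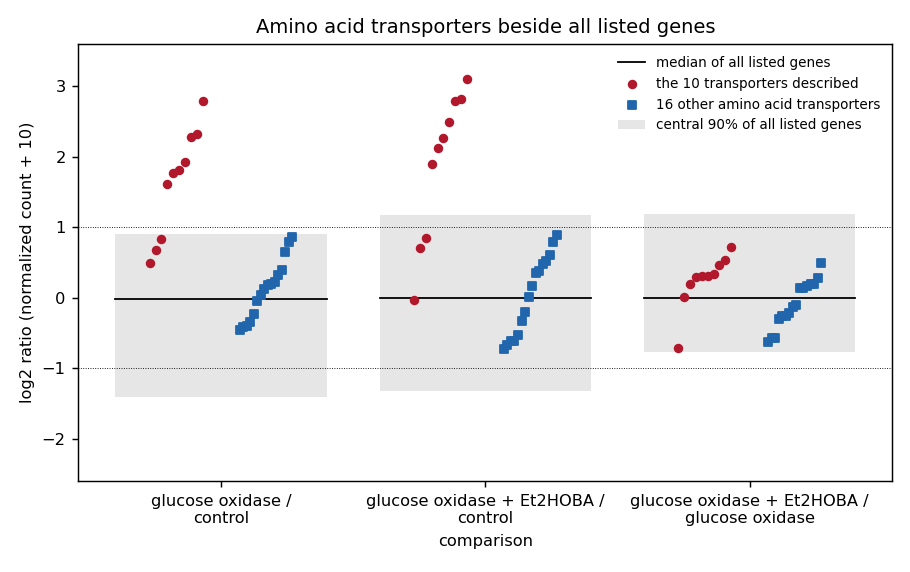
Log2 ratio of normalized counts (with 10 added) in each of the 3 comparisons for the 10 transporters described (red circles) and 16 other amino acid transporters (blue squares), each set in order of its values; the grey bars span the central 90% of the 18287 listed genes, the black lines are their medians and the dotted lines mark the limits. Against control 7 red points lie above 1 in each comparison, and no blue point passes a limit.

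Genes that use or guard the imported cystine were taken as a list of 20, of which 18 were listed and Ggt5 and Ggt7 were not analysed here. With glucose oxidase 6 of the 18 were higher than control and 1 was lower, where 4.07% and 8.6% of all genes were. With both agents 6 were higher and 2 were lower, where 6.66% and 8.04% of all genes were. Between the treated libraries 0 passed, where 6.39% of all genes were higher and 2.15% were lower. The counts of lower genes, and the 0 between the treated libraries, are near these shares. The medians were 0.49, 0.45 and 0.13. This list too was chosen with earlier results of these data known, so its counts are not a test. Gclc and Gclm, the subunits of the enzyme that joins cysteine to glutamate, had 2497, 5242 and 5618 reads and 2727, 9842 and 13701 reads in control, with glucose oxidase and with both agents. Their log2 ratios were 1.16 and 1.16 for Gclc and 1.94 and 2.32 for Gclm. Txnrd1, a thioredoxin reductase that can serve in reducing cystine, had 10143, 19515 and 31610 reads and log2 ratios of 1.04 and 1.63. Abcc1, an exporter of glutathione conjugates, had 5160, 15994 and 23288 reads.

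The list also held genes that break glutathione down or make cysteine without import. Chac1, an enzyme that degrades glutathione and a known ATF4 target, had 65 reads in control, 1396 with glucose oxidase and 2976 with both agents, with log2 ratios of 4.32 and 5.30. RNAs for the 2 steps of the pathway that makes cysteine from homocysteine differed from control in opposite directions, and the enzymes were not measured. Cth, which performs its last step, had 40, 470 and 718 reads and log2 ratios of 3.35 and 3.85. Cbs, which performs the step before, had 328, 17 and 11 reads and log2 ratios of -3.57 and -3.99. Oplah, which returns oxoproline to glutamate, had 275, 207 and 123 reads, and passed the limit with both agents only, at -1.11 beside -0.30 with glucose oxidase; the log2 ratio between the treated libraries was -0.81, within the limit.

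All 28 genes of a list of transcription factors and amino acid sensors were listed. With glucose oxidase 5 were higher and 1 was lower than control, where 4.07% and 8.6% of all genes were. With both agents 9 were higher and 4 were lower, where 6.66% and 8.04% of all genes were. Between the treated libraries 2 were higher and 1 was lower with both agents, which is near the 6.39% and 2.15% of all genes. The medians were 0.31, 0.33 and 0.12. As with the other lists, the genes were chosen with earlier results of these data known, so these counts are not a test. Atf4 had 3288 reads in control, 11946 with glucose oxidase and 19243 with both agents, and log2 ratios of 1.95 and 2.54. Trib3, a pseudokinase induced by ATF4, had 291, 7016 and 11263 reads and log2 ratios of 4.64 and 5.22. Ddit3, which encodes the factor CHOP, had 472, 2411 and 4339 reads, and Atf5 had 830, 7118 and 7172. Some other genes of the list did not pass the limit in both treated libraries, and those given here were chosen after their values were seen. Cebpg had log2 ratios of 0.51 and 0.76, Sesn2 of 0.76 and 0.89, and Ddit4 of -0.55 and -0.89. Cebpb was at 0.76 with glucose oxidase and passed the limit with both agents, at 1.16.

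The 2 genes of this list past the limit upward between the treated libraries, a count near the share of all genes, were Atf3 and Maff. Atf3, a factor induced by stress, had 107, 667 and 1630 reads, a log2 ratio of 1.17 between the treated libraries. Against control, Atf3 was at 2.62 with glucose oxidase and 3.80 with both agents. Maff, a small MAF protein that can pair with NRF2, had 840, 1137 and 2926 reads, a log2 ratio of 1.25. Sesn1, a sestrin that senses leucine, was lower with both agents, with 2328, 1190 and 495 reads and a log2 ratio of -1.35 between the treated libraries. Castor1, an arginine sensor, had 2996, 1365 and 758 reads and log2 ratios of -1.03 and -1.98 against control. Nfe2l2, which encodes NRF2 and was chosen after its values were seen, had 16468, 13495 and 12876 reads, with log2 ratios of -0.19 and -0.36. NRF2 is known to be regulated largely at the protein level, which was not measured.

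The genes nearest to Slc7a11 in the pair of log2 ratios against control were taken from 9135 genes with at least the median mean count. In order of Euclidean distance over these 2 values, they were Calcb at 0.136, Gsta4 at 0.242, Bdnf at 0.305, Runx1 at 0.346 and Nptx1 at 0.362. Calcb, which encodes a calcitonin gene-related peptide, had 219, 1493 and 2172 reads. Gsta4, a glutathione transferase that acts on lipid aldehydes, had 466, 3084 and 3480 reads. Bdnf, a neurotrophin, had 111, 672 and 1218 reads, Runx1, a transcription factor, had 130, 707 and 1236, and Nptx1, a pentraxin, had 5499, 29097 and 55213. The distance rests on 2 values from 3 libraries and on a control library that both ratios share.

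Of the 23 promoter windows with at least 2 matches to TGATGNAA, those of 7 genes belonged to listed genes, some with more and some with fewer reads in the treated libraries. Besides Slc7a11, Aars, the alanyl-tRNA synthetase, had 8645 reads in control, 18577 with glucose oxidase and 26878 with both agents, and Chchd10, a mitochondrial protein, had 24, 142 and 163. Slc7a7 is the transporter described above, and Sgsm3 had 1303, 1257 and 1259 reads. Tspyl3 had 845, 672 and 526 reads, and Zfp672 had 666, 570 and 383.

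All 8 endothelial markers were listed, and Pecam1 (37351, 26919 and 29562 reads) and Cdh5 (55360, 45034 and 63665 reads) were abundant in every library. The 8 did not go one way: with both agents Tek was at 0.247-fold of control, Vwf at 0.267 and Kdr at 0.391, while Emcn was at 1.47 and Cdh5 at 1.14. The summed normalized count of the 8 was 300179 in control, 198166 with glucose oxidase and 190567 with both agents. Of the fibroblast markers 3 of 5 were listed, with sums of 151, 1448 and 2807 that were nearly all Pdgfra (107, 1325 and 2821 reads), while Pdgfrb had 21, 43 and 71 reads and Col1a1 28, 30 and 23. Of the leukocyte markers 2 of 6 were listed, with sums of 7966, 17692 and 26775 that were nearly all Cd68 (8215, 17067 and 27799 reads), a lysosomal protein that other cells also make, while Csf1r had 6, 12 and 10 reads. Of the smooth muscle markers 4 of 6 were listed, with sums of 4851, 3707 and 3934, mostly Smtn; Myh11 went the other way from the sum, with 19, 35 and 73 reads, and Acta2 had 8, 18 and 13. Of the epithelial markers 1 of 4 was listed, Krt8, with 1, 5 and 6 reads. No listed marker was at 0 in any library. The other markers of these lists were not analysed here. The sums for the fibroblast and leukocyte lists were higher and that for endothelial cells lower in both treated libraries, where the transporters were higher; their part in the result was not tested. In such bulk libraries, fewer cells of a type and less RNA per cell cannot be told apart.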

How the data were processed

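Stranded libraries of polyadenylated RNA from 3 cultures, 1 per group, were aligned with STAR to mm10 and counted with featureCounts, per the submitters' processing notes, which give no versions. Per the file headers, the authors deposited read counts of the control library and of the library with both agents, with log2-scaled values and differences, for 18287 genes. For glucose oxidase against control the deposited values are a symbol and a log2 difference, and for the treated libraries against each other such values for 7 genes. The deposited log2 values are an inverse hyperbolic sine transform of the counts (applied to square roots), so the glucose oxidase counts were recovered by inverting it with the control counts. All (100%) were within 0.01 of a whole number, and 3.31% were after adding 1 read to each control count; 18275 genes were matched by symbol and 12 placed by whole reads. Coordinates are those of the deposited table; 17878 gene IDs had the same version and position in GENCODE release M21, so the build is GRCm38.

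Size factors by the median of ratios were 1.03, 0.965 and 1.04. Ratios were taken on log2 of the normalized count plus 10, with a limit of 1; fold intervals were exact Clopper-Pearson at 95%. The interval of the light to heavy chain ratio was approximated by the delta method. Spread cannot be estimated from single libraries, so no count model was fitted and nothing was tested. RPKM were computed from the counts with exon union lengths from GENCODE. All 10 transporters are named; from each other list, up to 8 genes past the limit in any comparison, by largest absolute log2 ratio; for Slc7a11, the 5 nearest genes. The members and lists were chosen with earlier results of these data known. Alternatives were other scalings (total counts, TMM factors from edgeR 4.0.16 and size factors over protein-coding genes), pseudocounts, limits and the deposited scale; a principal transcript length was added after seeing the data. Recovery was tested on simulated data. Python 3.11.15, numpy 2.4.6, pandas 2.3.3, scipy 1.17.1, matplotlib 3.10.9 and R 4.3.3 were used.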

Additional observations from a re-analysis of the deposited data

How the results depend on the processing

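No paired analysis was possible because each group has 1 library, and for the same reason no library could be left out. The 7 transporters higher than control in each treated library stayed 7 under every scaling, both pseudocounts and the deposited scale. At a limit of 2 the counts were 3 with glucose oxidase and 6 with both agents, beside 0.771% and 1.63% of all genes. At a limit of 0.5 they were 10 and 9, beside 13.5% and 19.2% of all genes. Between the treated libraries 2 transporters were higher and 1 was lower at a limit of 0.5. Those 2 are near the 13.6% of all genes that were higher, and the share lower at that limit was not computed. The median log2 ratio of the 10 with glucose oxidase was 1.55 on the deposited scale; scaling by total counts gave 2.04 with both agents and 0.22 between the treated libraries, and shifted the median of all genes by -0.05, -0.13 and -0.08 in the 3 comparisons. Of 180 values of single transporters under the alternatives, 34 moved beyond their counting interval. Of the values whose counting interval did not hold 1, 0 changed sign. Slc7a6 between the treated libraries ranged from -0.08 to 0.04 in log2 ratio.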
